A study of Mus musculus with 39 samples.

Results

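Sncg, Cdhr5 and Srpx2 are 3 of the 24116 gene entries measured by RNA sequencing in mouse interscapular brown adipose tissue, a fat depot of the upper back that makes heat. They were taken by name, each matched 1 entry, and they had been chosen because their values were strongly higher in the libraries labelled Cre+ than in those labelled Cre-, so that difference is given here as a description without a test. All mice were male, on a C57BL/6J background, and carried floxed Bcl6, the gene of a transcriptional repressor. The groups were Cre+ mice at 30 °C, in which Cre is driven by the promoter of Ucp1 and so is aimed at brown adipocytes, Cre- mice at 30 °C without the transgene, Cre+ mice at 22 °C and Cre- mice at 22 °C, with 4 libraries each and 16 in all. No ages are given for the mice. Nothing in the labels ties the libraries to separate animals, so p-values measure the spread between these samples.

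Each library had 1 value per gene, a read count estimated and normalised between libraries by the authors, called a normalised count below. Totals of normalised counts ran from 8867615 to 13516936 per library, and 14311 to 16849 gene entries were above 0, fewest in Cre- 22 °C library 1 and in Cre+ 22 °C library 2. The deposited values are normalised and not whole, so the depth in reads is unknown. Bcl6 itself was higher in the libraries labelled Cre+, with 4466 ± 853 normalised counts in Cre+ and 1847 ± 608 in Cre- libraries at 30 °C, and 3305 ± 514 in Cre+ and 1079 ± 509.9 in Cre- libraries at 22 °C (SD, n = 4 each; limma adjusted p = 0.00438 and 8.25e-04). The part of the gene removed by Cre is not given, and a whole-gene value does not check a deletion, so Cre+ and Cre- below name the labels of the libraries. Ucp1, the uncoupling protein that defines brown fat, was present in every group, at 5329 ± 1554 normalised counts in Cre+ and 16596 ± 2078 in Cre- libraries at 30 °C, and 45894 ± 11771 in Cre+ and 88819 ± 26458 in Cre- libraries at 22 °C (SD, n = 4 each).

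The 3 genes encode proteins of unrelated families. Sncg encodes gamma-synuclein, a small cytosolic protein of the synuclein family that is abundant in peripheral neurons and in white adipocytes, where synucleins are known to act on SNARE proteins, the machinery of membrane fusion. Cdhr5 encodes a mucin-like member of the cadherin family, a cell surface adhesion protein that joins the tips of microvilli on intestinal and kidney epithelium by binding its partner Cdhr2. Srpx2 encodes a secreted sushi repeat protein that binds the urokinase receptor and is known from synapse formation and from growing blood vessels.

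The genes lie on different chromosomes of mm10, placed here by RefSeq on GRCm38.p6. Sncg (Entrez 20618) is on the minus strand at chr14:34370274-34374669. Cdhr5 (Entrez 72040) is on the minus strand at chr7:141269080-141276795, and Srpx2 (Entrez 68792) is on the plus strand at chrX:133908416-133932448. No other annotated gene overlaps any of them. The bases just before each gene's start, from the RefSeq promoter table, are shown because the study is about a DNA-binding repressor. They span chr14:34374670-34374919, chr7:141276796-141277036 and chrX:133908175-133908415, each is given 5′ to 3′ on the gene's own strand, and capitals mark letters of the BCL6 motif TTCCTNGAA.
Sncg promoter: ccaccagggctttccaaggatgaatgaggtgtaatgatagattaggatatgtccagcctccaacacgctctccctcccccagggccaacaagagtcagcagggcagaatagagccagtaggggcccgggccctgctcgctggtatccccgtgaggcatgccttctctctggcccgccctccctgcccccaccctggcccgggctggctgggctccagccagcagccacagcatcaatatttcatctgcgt
Cdhr5 promoter: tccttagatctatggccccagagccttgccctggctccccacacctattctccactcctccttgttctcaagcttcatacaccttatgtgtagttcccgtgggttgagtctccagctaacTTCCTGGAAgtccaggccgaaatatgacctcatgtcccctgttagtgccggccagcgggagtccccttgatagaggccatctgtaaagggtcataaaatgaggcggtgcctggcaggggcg
Srpx2 promoter: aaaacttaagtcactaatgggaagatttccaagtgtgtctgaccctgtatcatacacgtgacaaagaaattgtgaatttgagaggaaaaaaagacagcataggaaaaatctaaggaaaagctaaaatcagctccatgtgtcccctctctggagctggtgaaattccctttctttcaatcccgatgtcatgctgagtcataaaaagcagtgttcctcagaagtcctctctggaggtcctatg

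Only the Cdhr5 stretch held a match to that motif. The letters are TTCCTGGAA, beginning 130 bases before the start used in the table, and the windows of Sncg and Srpx2 held no such letters. Both strands were searched from 250 bases before to 50 bases after each start, and 1.59% of the 32851 mouse promoter windows in the table held the motif. The shorter core TTCNNNGAA, shared by BCL6 and STAT factors, was also found in the Cdhr5 window and not in the other two, at the same letters, against 8.30% of all windows. None of the 3 windows held the direct repeat bound by PPAR with RXR, which 0.0396% of all windows held. A match of letters is a description of the sequence and not a binding site. The printed stretches differed in base composition, with 61.6% G or C for Sncg, 55.2% for Cdhr5 and 41.1% for Srpx2.

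Sncg was highest in Cre+ libraries at 30 °C. Its values there were 2029, 2357, 1527 and 1410 normalised counts, against 163, 160.4, 202 and 190.4 in Cre- libraries at 30 °C. At 22 °C it had 508, 589, 516 and 391 normalised counts in Cre+ libraries, against 120.3, 104, 102 and 78.2 in Cre- libraries. Every Cre+ library lay above every Cre- library at each temperature, and no 2 groups shared any part of their ranges. Group means were 1831 ± 441 in Cre+ and 179 ± 20.2 in Cre- libraries at 30 °C, and 501 ± 82.0 in Cre+ and 101 ± 17.4 in Cre- libraries at 22 °C (SD, n = 4 each). The order of the levels was therefore Cre+ 30 °C, Cre+ 22 °C, Cre- 30 °C and Cre- 22 °C. On the scale of log2(normalised count + 1), Cre+ minus Cre- was 3.32 (SE 0.17, 10.0-fold) at 30 °C and 2.30 (SE 0.17, 4.92-fold) at 22 °C.

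Cdhr5 had its lowest values in Cre- libraries at 22 °C. It had 128, 229, 179 and 177 normalised counts in Cre+ libraries at 30 °C, against 89.0, 77.2, 86.3 and 88.6 in Cre- libraries. At 22 °C the Cre+ libraries had 62.6, 157, 167 and 121 normalised counts, against 17.3, 10.8, 9.29 and 4.48 in Cre- libraries. Cre+ library 1 was the lowest of its group at both temperatures, and at 22 °C it fell below all 4 Cre- libraries at 30 °C. Means were 178 ± 41.2 in Cre+ and 85.3 ± 5.50 in Cre- libraries at 30 °C, and 127 ± 47.3 in Cre+ and 10.5 ± 5.28 in Cre- libraries at 22 °C (SD, n = 4 each). In the order of levels, Cre+ 30 °C overlapped with Cre+ 22 °C and Cre+ 22 °C with Cre- 30 °C, while Cre- 22 °C stood below all other groups. Cre+ minus Cre- was 1.03 in log2 (SE 0.33, 2.04-fold) at 30 °C and 3.51 (SE 0.33, 11.4-fold) at 22 °C.

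Srpx2, like Cdhr5, had its lowest values in Cre- libraries at 22 °C. Its values were 209.9, 295, 243 and 253 normalised counts in Cre+ libraries at 30 °C, against 175, 153, 117 and 176 in Cre- libraries. At 22 °C it had 234, 346, 157 and 215 normalised counts in Cre+ libraries, against 16.1, 34.6, 26.8 and 29.1 in Cre- libraries. The Cre+ and Cre- ranges did not overlap at either temperature, and the 4 lowest of the 16 libraries were the Cre- libraries at 22 °C. Means were 249.99 ± 35.0 in Cre+ and 155 ± 27.6 in Cre- libraries at 30 °C, and 238 ± 79.2 in Cre+ and 26.7 ± 7.74 in Cre- libraries at 22 °C (SD, n = 4 each). The Cre+ ranges overlapped between the temperatures, Cre+ at 22 °C also overlapped with Cre- at 30 °C, and Cre- at 22 °C stood apart. Cre+ minus Cre- was 0.69 in log2 (SE 0.24, 1.62-fold) at 30 °C and 3.10 (SE 0.24, 8.59-fold) at 22 °C.

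**Figure D1:**
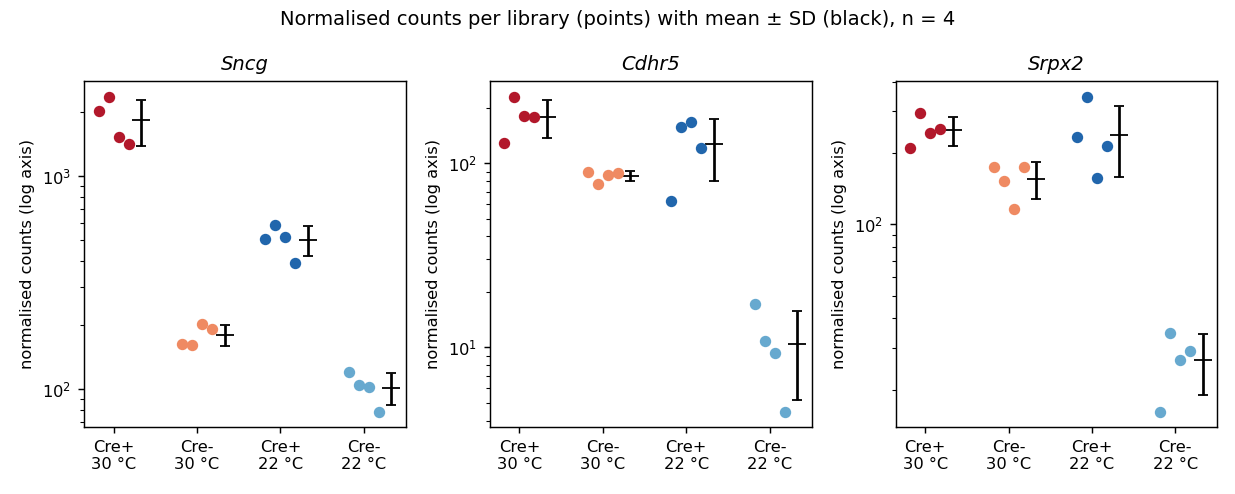
Normalised counts (vertical log axes) of Sncg, Cdhr5 and Srpx2 in each of the 16 libraries (points), by label and housing temperature, with the mean ± SD of each group of 4 in black. All 4 Cre+ libraries lie above all 4 Cre- libraries at each temperature for all 3 genes, and Cdhr5 and Srpx2 are lowest in Cre- libraries at 22 °C, with means of 10.5 and 26.7.

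Over the 13176 genes with a mean of at least 10 normalised counts, 5.65% were called higher and 6.85% lower in Cre+ libraries at 30 °C, and 5.51% higher and 4.69% lower at 22 °C (limma, adjusted p under 0.05). All 4 Cre+ libraries were above all 4 Cre- libraries for 10.5% of genes at 30 °C and 6.38% at 22 °C. The 3 genes were picked on these comparisons, so nothing is read from their own counts. Ranked by the log2 difference among those 13176 genes, Sncg was 12th from the top at 30 °C and 56th at 22 °C. Cdhr5 was 344th at 30 °C and 10th at 22 °C, and Srpx2 was 801st at 30 °C and 17th at 22 °C. Sncg thus had the larger Cre+ minus Cre- difference at 30 °C, whereas Cdhr5 and Srpx2 had it at 22 °C. The log2 difference at 30 °C minus that at 22 °C was 1.03 for Sncg (SE 0.24), -2.48 for Cdhr5 (SE 0.46) and -2.41 for Srpx2 (SE 0.34). No test is given for these values, which are built from the comparisons behind the choice of the genes.

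The comparison of temperatures asked how housing at 30 °C rather than 22 °C went with the level of each gene within a label. In Cre- libraries all 3 genes were higher at 30 °C. Srpx2 rose by 2.53 in log2 (SE 0.24, 5.76-fold, limma adjusted p = 1.21e-06) and Cdhr5 by 3.03 (SE 0.33, 8.20-fold, limma adjusted p = 3.95e-06). Sncg rose less, by 0.83 (SE 0.17, 1.77-fold, limma adjusted p = 0.00116). All 4 libraries at 30 °C were above all 4 at 22 °C for each gene, and the two-sided exact permutation p was 0.0286 each time, the smallest that 4 against 4 libraries allow. Of all genes tested, 22.9% were called higher and 22.7% lower at 30 °C in Cre- libraries, and 19.9% had all 30 °C libraries above all 22 °C libraries. All of these libraries also stand in the comparisons that chose the genes, so the p-values are not independent of the choice. Markers of several cell types moved with temperature as well, as given with the other cell types, and their part in these differences was not tested.

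In Cre+ libraries only Sncg passed the threshold between temperatures. It was 1.85 higher in log2 at 30 °C (SE 0.17, 3.61-fold, limma adjusted p = 2.92e-06), with 4 of 4 libraries above the range at 22 °C and an exact permutation p of 0.0286. High values in Cre+ libraries were what chose Sncg, so this p too is not independent of the choice. For Cdhr5 the difference was 0.55 (SE 0.33, 95% interval -0.14 to 1.24, limma adjusted p = 0.212, exact permutation p = 0.143), and without Cre+ 22 °C library 1, the low library above, it was 0.25. With libraries scaled to equal totals, a setting that moves the median of all genes in this comparison to 0.31, the Cdhr5 difference was 0.84 and passed the threshold (limma adjusted p = 0.0460). For Srpx2 the difference was 0.12 (SE 0.24, 95% interval -0.39 to 0.62, limma adjusted p = 0.741, exact permutation p = 0.657), and the ranges of 209.9 to 295 at 30 °C and 157 to 346 at 22 °C overlapped throughout. Of all genes tested, 15.0% were called higher and 17.7% lower at 30 °C in Cre+ libraries, and 16.2% had all 30 °C libraries above all 22 °C libraries. Adding the level of skeletal muscle transcripts as a covariate moved the 12 differences of the 3 genes by less than 1.5 times.

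**Figure D2:**
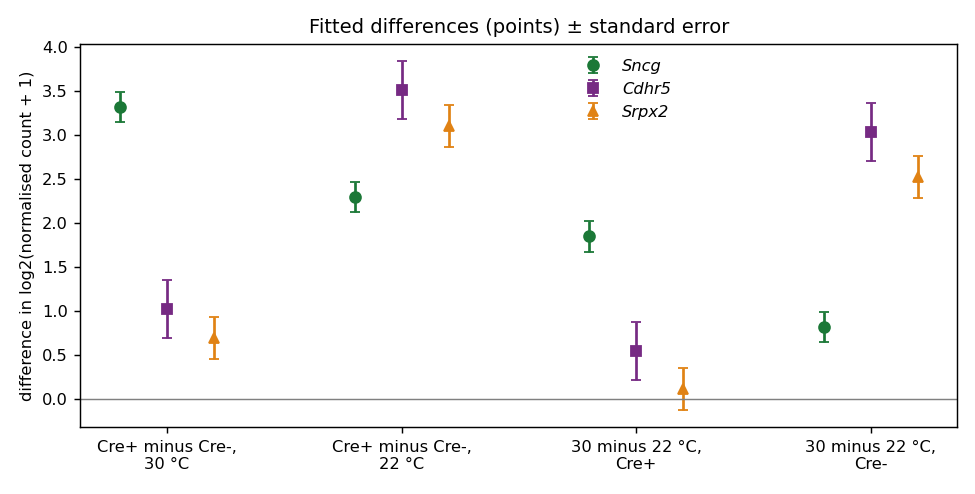
Fitted differences in log2(normalised count + 1) ± SE for Sncg (circles), Cdhr5 (squares) and Srpx2 (triangles) in the 4 comparisons. Sncg has its largest difference between labels at 30 °C (3.32), whereas Cdhr5 and Srpx2 have theirs at 22 °C (3.51 and 3.10) and, between temperatures, in Cre- libraries (3.03 and 2.53).

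Genes with the most similar pattern were sought by the root mean square difference in log2(normalised count + 1), each gene centred on its own mean, over the 16 libraries. Only tested genes were ranked, and those with predicted or clone names were left out. Cdhr5 and Srpx2 were close to each other: Srpx2 was the nearest of the ranked genes to Cdhr5, at 0.667, and Cdhr5 was the 5th nearest to Srpx2. Sncg stood further off, with Cdhr5 as its 89th gene at 1.03 and Srpx2 as its 117th at 1.05. The nearest to Sncg were Zim1, an imprinted zinc finger gene, at 0.571, Klhl13, an adaptor of cullin ubiquitin ligases, at 0.604, Ccdc80, a secreted matrix protein, at 0.692, Dpt, the matrix protein dermatopontin, at 0.767, and Adamts15, a secreted metalloprotease, at 0.780. For Cdhr5 the next after Srpx2 were Tnc (0.703), Prn (0.770), Col28a1, a collagen chain (0.773), and Klhl13 (0.824). For Srpx2 the nearest were Tnc (0.625), Klhl13 (0.636), Fads1 (0.646) and Lst1 (0.654), which precede Cdhr5.

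All 5 genes nearest to Sncg had its order of group means. Tnc, Prn, Col28a1 and Lst1 differed from Cdhr5 and Srpx2 in that their mean was higher in Cre- libraries at 30 °C than in Cre+ libraries at 22 °C. Zim1 had 241 ± 78.9 normalised counts in Cre+ and 47.3 ± 11.6 in Cre- libraries at 30 °C, and 149.8 ± 24.5 in Cre+ and 19.9 ± 4.92 in Cre- libraries at 22 °C (SD, n = 4 each). Tnc, the matrix glycoprotein tenascin C, had 1306 ± 103 in Cre+ and 684 ± 124 in Cre- libraries at 30 °C, and 594 ± 97.0 in Cre+ and 131 ± 32.0 in Cre- libraries at 22 °C. Fads1, a fatty acid desaturase, had 766 ± 47.1 in Cre+ and 518 ± 58.3 in Cre- libraries at 30 °C, and 764 ± 203 in Cre+ and 223 ± 27.3 in Cre- libraries at 22 °C. Tnc was therefore lower at 22 °C under both labels, while the Fads1 means in Cre+ libraries differed little between temperatures, as with Srpx2. The likeness was computed over the libraries that also chose the 3 genes, and it is a description.

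**Figure D3:**
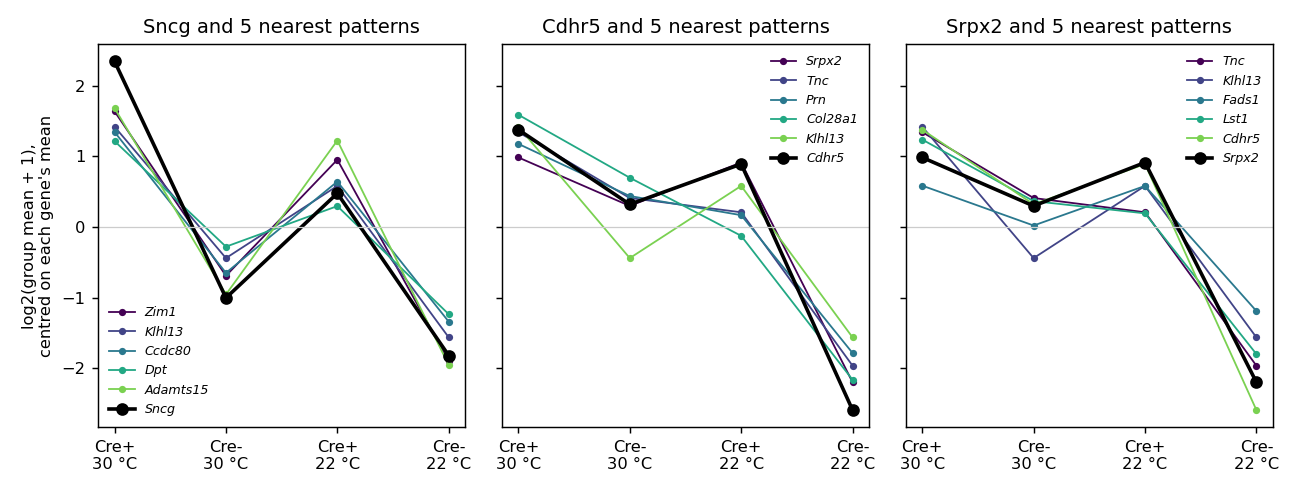
Log2 group means of each gene (black) and of the 5 genes with the nearest pattern (coloured), centred on each gene's own mean, by label and temperature. Sncg and the genes nearest to it are lower in both Cre- groups, and Cdhr5, Srpx2 and theirs are lowest in Cre- libraries at 22 °C.

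The relatives and partners of the 3 proteins were counted in lists that leave out the 3 genes. Over all genes tested, 5.65% were called higher and 6.85% lower in Cre+ libraries at 30 °C, and 5.51% and 4.69% at 22 °C. Between temperatures the shares were 15.0% higher and 17.7% lower at 30 °C in Cre+ libraries, and 22.9% and 22.7% in Cre- libraries. The counts of called genes in the lists below are to be read beside these shares. Shares of all genes at an unadjusted p under 0.05 are not given, so nothing is read from counts at that threshold. Sncb, the gene of beta-synuclein and a relative of Sncg, was listed at 0 in all 16 libraries. Of 22 SNARE fusion genes tested, 0 were called higher and 1 lower in Cre+ libraries at 30 °C, and 0 higher and 2 lower at 22 °C, with list medians of 0.09 and -0.05 beside medians of 0.01 and -0.00 for all genes. At an unadjusted limma p under 0.05, 3 were higher and 1 lower at 30 °C, and 2 higher and 2 lower at 22 °C. Stxbp2, a syntaxin-binding protein, was the gene lower at both temperatures, by a log2 difference of -1.28 at 30 °C (SE 0.10, limma adjusted p = 6.91e-07) and -0.72 at 22 °C (SE 0.10, limma adjusted p = 0.000304). Stx4a, the plasma membrane syntaxin, fell at 22 °C by 0.36 (SE 0.09, limma adjusted p = 0.0219), a call that did not hold without Cre- 22 °C library 2 or Cre+ 22 °C library 1 or 4 (limma adjusted p from 0.0582 to 0.0691). Between temperatures, 2 of the 22 were higher and 3 lower at 30 °C in Cre+ libraries, and 2 were higher and 6 lower in Cre- libraries. Such small counts are not set apart from the shares over all genes.

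The partners of Cdhr5 in microvilli were mostly near 0. Cdhr2, its binding partner, was listed at 0 in all libraries, and Ush1c, Myo7b and Anks4b, which anchor that complex to the actin core, were at 1.81 normalised counts or less in every library. Of the 13 microvillus and brush border genes, 4 had values high enough to test. Vil1, the actin bundler villin, was among them only through Cre- libraries at 22 °C, so it is given as values: 9.66 ± 1.40 normalised counts in Cre+ and 13.6 ± 3.61 in Cre- libraries at 30 °C, and 5.71 ± 1.41 in Cre+ and 31.6 ± 15.6 in Cre- libraries at 22 °C (SD, n = 4 each). Slc9a3r1, Ezr and Eps8, a scaffold, a membrane linker and an actin-capping protein, were not called between labels at 30 °C or 22 °C (limma). Between temperatures they were higher at 30 °C under both labels, by 1.07, 0.91 and 0.66 in log2 in Cre+ libraries. In Cre- libraries the differences were 0.76, 0.73 and 0.81 (limma adjusted p from 1.55e-04 to 0.0111 over both labels). Over all genes 15.0% were called higher at 30 °C in Cre+ libraries and 22.9% in Cre- libraries. Slc9a3r1, Ezr and Eps8 were named after their values were seen.

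Among 14 other genes of the cadherin-related family tested, 0 were higher and 2 lower in Cre+ libraries at 30 °C, and 2 higher and 0 lower at 22 °C (limma; medians -0.07 and 0.36). At an unadjusted p under 0.05, 0 were higher and 3 lower at 30 °C, and 5 were higher and 1 lower at 22 °C. These counts have no share over all genes at that threshold beside them. Clstn3, a calsyntenin known from adipocytes, fell at 30 °C by 1.24 (SE 0.14, limma adjusted p = 3.07e-05), and Fat1, an atypical cadherin, fell by 0.54 (SE 0.13, limma adjusted p = 0.0106). At 22 °C, Celsr2 rose by 1.23 (SE 0.29, limma adjusted p = 0.0132) and Dchs1 by 0.91 (SE 0.25, limma adjusted p = 0.0254), both of them large cadherins of planar cell polarity. The Celsr2 call was lost without Cre+ 22 °C library 3 (limma adjusted p = 0.0529), and that of Dchs1 without Cre+ 22 °C library 1, 3 or 4 or Cre- 22 °C library 1 (limma adjusted p from 0.0608 to 0.0889). At 30 °C against 22 °C, 3 of the 14 were higher and 1 lower in Cre+ libraries, and 8 were higher and 1 lower in Cre- libraries. Over all genes the shares were 15.0% and 17.7% in Cre+ libraries, and 22.9% and 22.7% in Cre- libraries.

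Genes around Srpx2 were taken from sushi repeat proteins and from the urokinase receptor system. Of 10 sushi repeat genes tested, 1 was higher in Cre+ libraries at 30 °C and 2 at 22 °C (medians 0.32 and 0.03), with 0 lower by limma, also at an unadjusted p under 0.05. Svep1, a large secreted protein with sushi repeats, had 3016 ± 617 normalised counts in Cre+ and 1619 ± 249.8 in Cre- libraries at 30 °C, and 3731 ± 202 in Cre+ and 1739 ± 522 in Cre- libraries at 22 °C (SD, n = 4 each). It rose by 0.89 in log2 (SE 0.18, limma adjusted p = 0.00385) and by 1.15 (SE 0.18, limma adjusted p = 0.00065). Sez6, a neuronal sushi protein, rose by 1.54 at 22 °C (SE 0.42, limma adjusted p = 0.0283), a call lost without Cre+ 22 °C library 1, 3 or 4 or Cre- 22 °C library 1 or 3 (limma adjusted p from 0.0637 to 0.0891). Between temperatures, 2 of the 10 were higher at 30 °C in Cre+ libraries and 4 in Cre- libraries, beside 15.0% and 22.9% of all genes.

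The receptor of SRPX2 was itself higher in Cre+ libraries. Plaur, the urokinase receptor, had 124 ± 23.8 normalised counts in Cre+ and 44.1 ± 14.5 in Cre- libraries at 30 °C, and 32.6 ± 2.21 in Cre+ and 15.9 ± 5.10 in Cre- libraries at 22 °C (SD, n = 4 each). That was a log2 rise of 1.53 (SE 0.28, limma adjusted p = 0.00195) at 30 °C and of 1.05 (SE 0.28, limma adjusted p = 0.0259) at 22 °C. The call at 22 °C was lost without Cre+ 22 °C library 1, 3 or 4 or Cre- 22 °C library 3 or 4 (limma adjusted p from 0.0501 to 0.0712). In all, 3 of the 13 genes tested in this system were higher and 1 lower in Cre+ libraries at 30 °C, and 2 higher and 1 lower at 22 °C (medians 0.15 and 0.30).

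Inhibitors of urokinase moved in different directions. Serpine2, a cell surface inhibitor of serine proteases, was lower in Cre+ libraries, by -1.20 in log2 at 30 °C (SE 0.15, limma adjusted p = 5.54e-05) and -0.97 at 22 °C (SE 0.15, limma adjusted p = 0.000471). Serpinb6a, an intracellular serpin, rose by 0.71 at 30 °C (SE 0.17, limma adjusted p = 0.0123) and 0.64 at 22 °C (SE 0.17, limma adjusted p = 0.0254), and at 22 °C it was not called without Cre- 22 °C library 3 or 4 (limma adjusted p = 0.0811 and 0.0667). Between temperatures, 5 of the 13 were higher at 30 °C in Cre+ libraries and 6 in Cre- libraries, Plaur and Serpine2 among them under both labels. Over all genes 15.0% and 22.9% were called higher.

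Genes lying next to the 3 genes on the chromosome were compared between labels, the 5 nearest tested genes on each side, 30 in all. At 30 °C 0 of the 30 were called higher in Cre+ libraries and 3 lower, and at 22 °C 3 were higher and 4 lower. Over all genes tested, 5.65% were called higher and 6.85% lower at 30 °C, and 5.51% higher and 4.69% lower at 22 °C, and counts of 0 to 4 in 30 genes are too small to set apart from those shares. At an unadjusted limma p under 0.05, 0 neighbours were higher and 6 lower at 30 °C, and 9 were higher and 6 lower at 22 °C. The shares above are at adjusted p and cannot be set beside these counts, from which nothing is read. The 3 called higher at 22 °C were among the 5 neighbours that lay within 10 kb, and the other two, Phrf1 at 6.33 kb from Cdhr5 and Sytl4 at 3.94 kb from Srpx2, were not called (log2 differences 0.17 and 0.32, limma adjusted p = 0.575 and 0.124). Phrf1 was named after its values were seen. Mmrn2, an endothelial matrix glycoprotein whose annotated boundary is 0.835 kb from the Sncg start, had 1053 ± 177 normalised counts in Cre+ and 711 ± 107 in Cre- libraries at 22 °C (SD, n = 4 each), 0.56 apart in log2 (SE 0.13, limma adjusted p = 0.0124). Irf7, an interferon regulatory factor 2.58 kb from Cdhr5, had 261 ± 53.9 in Cre+ and 147 ± 13.0 in Cre- libraries (log2 difference 0.81, SE 0.17, limma adjusted p = 0.00601). Tspan6, a tetraspanin 7.21 kb from Srpx2, had 182 ± 28.9 in Cre+ and 113 ± 46.6 in Cre- libraries (log2 difference 0.75, SE 0.20, limma adjusted p = 0.0271), a call lost without Cre+ 22 °C library 1 or 3 or Cre- 22 °C library 3 or 4 (limma adjusted p from 0.0568 to 0.0771). Sncg, Cdhr5 and Srpx2 differed by 2.30, 3.51 and 3.10 in log2 at that temperature. They were chosen by this difference, so nothing is read from its size beside that of the neighbours.

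At 30 °C the same 3 neighbours differed between labels by 0.09, 0.32 and -0.00 in log2 for Mmrn2, Irf7 and Tspan6 (limma adjusted p = 0.719, 0.251 and 0.994). On the other sides the closest tested genes were Gm3219, at 24.6 kb from Sncg, Deaf1, a transcription factor at 20.4 kb from Cdhr5, and Sytl4, a synaptotagmin-like protein at 3.94 kb from Srpx2, and none of them was called between labels at either temperature. Gm3219 became a call at 22 °C without Cre- 22 °C library 1 or Cre+ 22 °C library 1 (log2 difference 0.96 and 0.93, limma adjusted p = 0.0221 and 0.0491). Neighbours further out that were lower in Cre+ libraries were Glud1, glutamate dehydrogenase (-0.50 at 30 °C and -0.51 at 22 °C), Trmt2b, a mitochondrial RNA methyltransferase (-0.59 and -0.49), Eps8l2 (-0.63 at 30 °C), Taldo1, transaldolase (-0.72 at 22 °C), and Anxa8, an annexin (-1.40 at 22 °C). The Eps8l2 call was lost without Cre+ 30 °C library 2 or 4 or Cre- 30 °C library 1 or 4 (limma adjusted p from 0.0604 to 0.0901), and that of Anxa8 without Cre+ 22 °C library 1 or Cre- 22 °C library 1 or 4 (limma adjusted p from 0.067 to 0.0758).

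Between temperatures, 4 of the 30 neighbours were higher and 3 lower at 30 °C in Cre+ libraries, and 13 were higher and 5 lower in Cre- libraries. Over all genes the shares were 15.0% higher and 17.7% lower in Cre+ libraries, and 22.9% and 22.7% in Cre- libraries. In Cre- libraries 5 of the 6 closest neighbours were higher at 30 °C, Mmrn2 by 0.78, Irf7 by 1.05, Deaf1 by 0.35, Tspan6 by 1.13 and Sytl4 by 0.55 in log2, the Deaf1 call being lost without Cre- 30 °C library 3 or Cre- 22 °C library 3 (limma adjusted p = 0.054 and 0.057). Tested genes were sparse around Srpx2, where the 5th on the side before its start lay 19347 kb away.

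**Figure D4:**
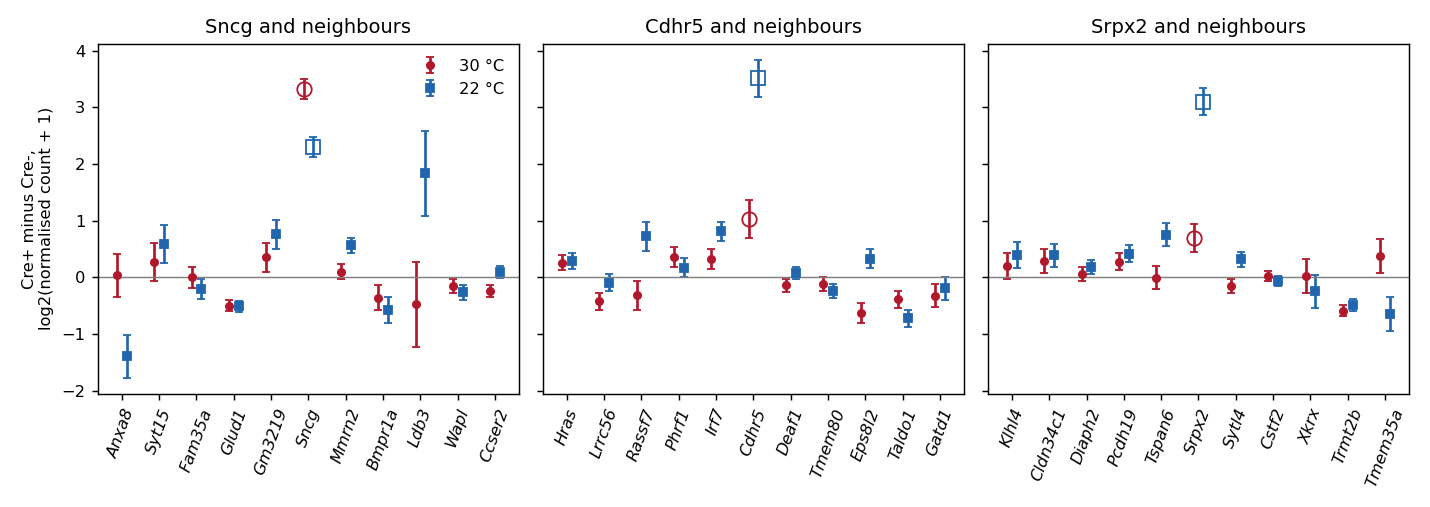
Cre+ minus Cre- difference in log2(normalised count + 1) ± SE at 30 °C (circles) and 22 °C (squares) for Sncg, Cdhr5 and Srpx2 (large open symbols) and the 5 nearest tested genes on each side, in chromosome order and not to scale. At 22 °C Mmrn2, Irf7 and Tspan6 lie at 0.56, 0.81 and 0.75. The genes they flank, which were chosen by this difference, lie at 2.30, 3.51 and 3.10.

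The deposited list of BCL6 binding peaks, from chromatin of Cre- brown fat at 30 °C, was searched for peaks near the 3 genes. None of its 3022 peaks had Sncg, Cdhr5 or Srpx2 as the nearest gene. The peak nearest to the Sncg start was 21.5 kb away at chr14:34396078-34396258, in an exon of Mmrn2, with a deposited score of 9.65, and 12.8% of all peaks scored higher. For Cdhr5 it was 156 kb away at chr7:141121019-141121199, assigned to Ano9, with a score of 7.33. For Srpx2 it was 1977 kb away at chrX:135885148-135885328, at the promoter of Bhlhb9, with a score of 4.11, equal to the lowest in the list. Chromosomes 14, 7 and X held 115, 184 and 18 peaks. The shares over all genes counted a gene only where a peak named it as its nearest gene. On that count 1021 of the 13176 tested genes, 7.75%, had a peak within 10 kb, and 13.3% within 100 kb. The distances above are to any peak, also one assigned to another gene, so these shares cannot be set against them. The scores are the authors', the list was made from 1 library, and its calling threshold and control are not stated.

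Transcripts of other cell types also differed between the groups, and in whole tissue fewer cells of a type and less RNA per cell cannot be told apart. Of 14 macrophage markers, 11 were higher in Cre+ libraries at 30 °C, and 7 higher and 1 lower at 22 °C. Their summed normalised counts ran from 6202 to 16852 in Cre+ and 3609 to 4566 in Cre- libraries at 30 °C, and from 2157 to 3124 in Cre+ and 1249 to 2217 in Cre- libraries at 22 °C. Macrophage sums did not overlap between labels at 30 °C and did at 22 °C. Sncg, Cdhr5 and Srpx2 were chosen by their difference between labels, so their ranges are not set against these sums. Of 13 brown adipocyte markers, 5 were lower in Cre+ libraries at 30 °C and 3 at 22 °C. Skeletal muscle sums varied most within groups, from 910 to 32898 in Cre+ and 11392 to 20196 in Cre- libraries at 30 °C, and from 1532 to 38320 in Cre+ and 1576 to 5669 in Cre- libraries at 22 °C, with 1 of 18 markers lower at 30 °C and 1 higher at 22 °C. Between temperatures, 12 of the 14 macrophage, 8 of 13 fibroblast and progenitor, 8 of 18 skeletal muscle and 6 of 10 lymphocyte markers were higher at 30 °C in Cre- libraries, and 10 of the 13 brown adipocyte markers were lower. In Cre+ libraries 13 of the 14 macrophage, 8 of 13 fibroblast and progenitor and 3 of 10 lymphocyte markers were higher at 30 °C, and 9 of the 13 brown adipocyte markers were lower. The part of any of these shifts in the values of Sncg, Cdhr5 and Srpx2 was not tested, apart from the muscle covariate above.

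Cell types known for the 3 genes were checked in the same way. Of 14 neuron markers, 13 were too low to test and the other was not called, and the sums ran from 61.3 to 80.4 in Cre+ and 44.4 to 80.3 in Cre- libraries at 30 °C, and from 56.4 to 83.2 in Cre+ and 50.7 to 81.2 in Cre- libraries at 22 °C. The neuron sums overlapped between all groups, and their part in the values of Sncg was not tested. Of 12 epithelial markers 11 were too low to test, Krt5 and Krt14 were listed at 0, and the sums were 24.7 to 32.3 in Cre+ and 22.4 to 32.7 in Cre- libraries at 30 °C, and 10.7 to 15.1 in Cre+ and 20.1 to 59.7 in Cre- libraries at 22 °C. Without Vil1, the other 11 summed to 13.3 to 23.9 in Cre+ and 8.46 to 22.2 in Cre- libraries at 30 °C, and to 3.62 to 9.43 in Cre+ and 3.08 to 8.41 in Cre- libraries at 22 °C, overlapping at both temperatures. Of 10 white fat enriched genes tested, 2 were higher in Cre+ libraries at 30 °C (Nnat and Mest) and 3 at 22 °C (Mest, Nnat and Slc7a10), and Hoxc8 was lower at both, genes named after their values were seen. White fat sums were 14967 to 23112 in Cre+ and 5567 to 7008 in Cre- libraries at 30 °C, and 3532 to 6523 in Cre+ and 1835 to 2703 in Cre- libraries at 22 °C. At 30 °C most of the sum was Nnat, an imprinted gene, with 13655 ± 2617 normalised counts in Cre+ and 1813 ± 593 in Cre- libraries (SD, n = 4 each). Without Nnat the sums were 5011 to 7744 in Cre+ and 4293 to 4892 in Cre- libraries at 30 °C. At 22 °C they were 2559 to 4645 in Cre+ and 1629 to 2526 in Cre- libraries. With or without Nnat, the white fat sums did not overlap between labels at either temperature. Genes with high values weigh most in such sums. Lep had 3455 ± 861 normalised counts in Cre+ and 1876 ± 220 in Cre- libraries at 30 °C. Slc7a10 had 1454 ± 732 in Cre+ and 246 ± 134 in Cre- libraries at 22 °C. The means of Npr3, Agt, Psat1 and Hoxc8 were lower in Cre+ libraries at 30 °C. The sums thus do not show a rise across the list, and these genes too were named after their values were seen. The part of these genes in the values of Sncg was not tested.

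Of 11 endothelial markers, 4 were higher in Cre+ libraries at each temperature, with sums of 29900 to 36178 in Cre+ and 24686 to 29689 in Cre- libraries at 30 °C, and 19232 to 33842 in Cre+ and 15911 to 25012 in Cre- libraries at 22 °C. They were Cldn5, Egfl7, Esam and Pecam1 at 30 °C, and Pecam1, Tie1, Esam and Cdh5 at 22 °C. Of 13 fibroblast and adipocyte progenitor markers, Cd34 was higher in Cre+ libraries at 22 °C and 0 were called by limma at 30 °C. At an unadjusted p under 0.05, 2 were higher at 30 °C, a count with no share over all genes beside it. Lrrn4 was the mesothelial marker with values high enough to test, and it had 325 ± 87.8 normalised counts in Cre+ and 49.4 ± 6.96 in Cre- libraries at 30 °C, and 330.4 ± 56.9 in Cre+ and 45.2 ± 13.1 in Cre- libraries at 22 °C (SD, n = 4 each; log2 differences 2.67 and 2.88, limma adjusted p = 9.85e-07 and 7e-07). The other mesothelial markers measured were too low to test. Lymphocyte markers were higher in Cre+ libraries for 1 of 10 genes at 30 °C (Ptprc) and 4 at 22 °C (Cd79a, Ptprc and Cd4 among them). Mural markers were higher for 2 of 8 at 30 °C (Tagln and Acta2), Schwann cell markers were higher for 1 (Pmp22) and lower for 1 (S100b) of 8 at 30 °C and lower for 1 at 22 °C (S100b), and general adipocyte markers were lower for 1 of 10 at 30 °C (Pnpla2). The marker genes of this paragraph were named after their values were seen.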

How the data were processed

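RNA was measured in 16 brown fat libraries, made from polyA RNA with a stranded kit and read as single reads of 75 cycles, per the labels' protocols. The deposited signal value of each gene and library is an estimated count made by the authors with kallisto against mm10 and normalised with DESeq2, per the submitters' processing notes. The deposited score of each BCL6 peak comes from HOMER after Bowtie2 alignment, per the file headers and the submitters' processing notes, and peaks were called on 1 Cre- library. Chromatin samples for H3K27ac, for ERRa, for BCL6 in Cre+ fat and the input were not analysed here.

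Values were tested as log2(value + 1), so fold changes of low genes are understated. A model with 1 mean per group was fitted with limma 3.58.1 in R 4.3.3 to all 16 libraries and the 13176 genes with a mean of at least 10, with a trend of the variance with the mean, with Benjamini-Hochberg adjustment across those genes and a threshold of 0.05. Exact permutation tests used scipy 1.17.1. Gene positions and promoters came from RefSeq tables of GRCm38.p6, which held positions for 99.9% of the genes tested. With 200 of 13176 genes changed in simulated data, the fit recovered 57.4% (Cre+ run) and 75% (Cre- run) of changes of 1 in log2 between temperatures. Of changes of 2 it recovered 98.3% and 90.5%. Both runs drew all libraries from the same gene means and spreads, so their gap comes from random draws and not from the labels. The share of genes changed was far below the shares called between temperatures in the data.

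The 3 genes and all gene lists were chosen with earlier results of these data known. Named genes are the 3 genes, Bcl6 and Ucp1, the closest tested gene on each side and every one of the 5 per side that was called between labels, up to 4 genes per pathway list called between labels by smallest adjusted p, and the 5 genes with the nearest pattern. Genes named outside this rule are marked as such. Some genes that the rule or the lists take are not reported here. Alternatives were other pseudocounts, filters, scalings and variance models, the 2 groups alone, a replicate block, a muscle covariate, and leaving libraries out.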

Additional observations from a re-analysis of the deposited data

How the results depend on the processing

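Under the alternatives listed, including each library left out in turn, Sncg, Cdhr5 and Srpx2 kept the direction of their genotype differences and of their temperature differences in Cre- libraries. The ranges did not overlap in these comparisons, so leaving out 1 library could not reverse a direction. The genotype differences also chose the genes, so nothing is read from their stability. Sncg and the Cre- temperature results also kept their calls throughout. The exception among calls was Cdhr5 between temperatures in Cre+ libraries, which passed with equal library totals (0.84 against 0.55). The Srpx2 difference in Cre+ libraries, not called in any setting, ran from -0.06 to 0.32 with a library left out. Quantile normalization moved the Sncg difference of genotype effects to 1.36 (1.03 in the fit reported), the Srpx2 genotype difference at 22 °C to 2.73 (3.10) and its difference of effects to -1.995 (-2.41), and leaving out the 2 sparsest libraries gave 2.69 and -1.99 for Srpx2. The cause was not tested.

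Counts over all genes moved more, from 745 higher and 902 lower in Cre+ libraries at 30 °C and 726 higher and 618 lower at 22 °C. Fitted on the 2 groups alone, 1123 were higher at 30 °C, and 276 higher and 249 lower at 22 °C. Without the 2 sparsest libraries there were 1329 higher and 1466 lower at 30 °C and 1147 higher and 1197 lower at 22 °C. Quantile normalization gave 453 higher at 22 °C. Equal totals gave 1306 higher and 303 lower at 22 °C, 4397 higher and 1127 lower (1978 and 2336) between temperatures in Cre+ libraries, and 6569 and 1161 (3012 and 2987) in Cre- libraries, with medians of all genes at 0.07 and 0.17 between labels and 0.31 and 0.43 between temperatures. Leaving out 1 library gave 452 to 982 higher and 559 to 1135 lower at 30 °C, and 404 to 1164 higher and 360 to 1192 lower at 22 °C, lowest without Cre- 30 °C library 4 and Cre+ 22 °C library 3 and highest at 22 °C without Cre+ 22 °C library 2. The count higher also moved by over 1.5 times without Cre+ 30 °C library 1 (484) or 4 (488), Cre+ 22 °C library 1 (425) or Cre- 22 °C library 3 (430). On the 2 groups alone, Mmrn2, Tspan6, Taldo1, Trmt2b, Anxa8, Celsr2, Dchs1, Plaur, Serpinb6a, Stx4a and Ucp1 lost their calls between labels at 22 °C. Quantile normalization ended those of Plaur, Sez6, Stx4a, Tspan6 and Ucp1 at 22 °C, and equal totals those of Anxa8 and Stx4a at 22 °C and of Eps8l2 and Fat1 at 30 °C. Glud1 between temperatures in Cre- libraries reversed to 0.27 with quantile normalization and 0.28 with equal totals (-0.11).

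Same-numbered libraries did not deviate together (correlations of deviations from -0.48 to 0.17, 1 of 16 pairs over 0.1), so the fit reported did not pair them. Such correlations cannot exclude that same-numbered libraries were handled together. With a replicate block Sncg between temperatures in Cre+ libraries had an adjusted p of 8.68e-06, and 686 genes were higher and 804 lower at 30 °C and 635 higher and 526 lower at 22 °C between labels, with no call of the 3 genes changed. The depth in reads is unknown, so no floor for low genes such as Cdhr5 in Cre- libraries at 22 °C can be given.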
